A study of Mus musculus with 16 samples.

Results

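The 10 genes described here mark the endothelium, the cell layer that lines blood vessels, and were measured in epididymal white adipose tissue of obese mice. They were found by symbol in the deposited table, where Pecam1, Cdh5, Kdr, Flt1, Tie1, Tek, Vwf, Emcn, Eng and Nos3 each had a unique Ensembl ID. These are 10 of 54532 gene IDs, and all 10 were among the 13271 genes that passed a mean of at least 1 FPKM (fragments per gene, scaled by gene length and library depth) over the 16 libraries. RNA-seq libraries were made from male C57BL/6 mice after 20 weeks of high-fat diet, with 4 libraries in each of 4 groups. The tubastatin group received tubastatin A-HCl, an inhibitor of the deacetylase HDAC6, and its controls received vehicle. The labels give both of these groups an age of 25 weeks and the genotype of a global HDAC6 knockout, whereas the study's design line names no knockout and gives about 28 weeks, so their genotype and age are uncertain. The AdKO group carried an adipose tissue specific HDAC6 knockout and its AdCre controls carried adiponectin-Cre, and both were aged 28 weeks and labelled as vehicle treated. Adiponectin-Cre is active in fat cells and not in endothelium, so Hdac6 in vessel cells was not its target. The labels do not state that each library came from a separate animal, so the tests measure the spread between libraries.

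Endothelial cells in fat form a dense capillary bed that supplies each adipocyte with oxygen and passes fatty acids from the blood into the tissue. Vessel growth is driven by vascular endothelial growth factor (VEGF), which adipocytes secrete and which signals through Kdr, while Flt1 binds the same ligands with high affinity and weak kinase activity. Vessel stability depends on the angiopoietins and their receptor Tek, with Tie1 as its co-receptor, and on the cadherin Cdh5 at the junctions between endothelial cells.

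The 2 receptor pairs are closest to the secreted signals, so their promoter sequences are shown here (RefSeq, GRCm38.p6, on the strand of the gene, 300 bases around the annotated start). Kdr lies at chr5:75978406-75978705 on the minus strand, Flt1 at chr5:147725962-147726261 on the minus strand, Tie1 at chr4:118489800-118490099 on the minus strand and Tek at chr4:94739039-94739338 on the plus strand. The gene spans given further below come from another annotation, GENCODE M21. Its Tie1 span ends at 118490061, so most of the Tie1 window lies inside that span. For Kdr, Flt1 and Tek most of the window lies outside the span. Capitals mark AGGAAG or CGGAAG, or their reverse complements CTTCCT and CTTCCG, which hold the core recognised by ETS transcription factors such as Erg and Fli1.
Kdr: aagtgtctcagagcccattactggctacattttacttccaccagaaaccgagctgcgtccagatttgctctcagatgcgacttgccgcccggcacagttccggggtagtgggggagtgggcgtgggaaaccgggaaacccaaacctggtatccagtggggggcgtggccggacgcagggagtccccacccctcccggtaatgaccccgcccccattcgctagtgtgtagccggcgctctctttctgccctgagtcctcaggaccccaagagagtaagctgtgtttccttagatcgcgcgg
Flt1: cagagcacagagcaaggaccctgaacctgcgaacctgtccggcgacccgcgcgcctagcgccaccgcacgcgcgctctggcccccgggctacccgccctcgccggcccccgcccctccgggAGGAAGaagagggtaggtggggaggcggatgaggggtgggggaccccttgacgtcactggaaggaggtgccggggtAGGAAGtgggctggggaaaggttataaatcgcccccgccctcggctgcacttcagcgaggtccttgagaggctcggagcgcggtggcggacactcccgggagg
Tie1: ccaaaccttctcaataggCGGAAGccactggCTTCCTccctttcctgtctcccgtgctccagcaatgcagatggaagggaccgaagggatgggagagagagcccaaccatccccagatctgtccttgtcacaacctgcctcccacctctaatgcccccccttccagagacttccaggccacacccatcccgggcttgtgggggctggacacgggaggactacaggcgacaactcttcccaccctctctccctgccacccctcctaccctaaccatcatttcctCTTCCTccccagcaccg
Tek: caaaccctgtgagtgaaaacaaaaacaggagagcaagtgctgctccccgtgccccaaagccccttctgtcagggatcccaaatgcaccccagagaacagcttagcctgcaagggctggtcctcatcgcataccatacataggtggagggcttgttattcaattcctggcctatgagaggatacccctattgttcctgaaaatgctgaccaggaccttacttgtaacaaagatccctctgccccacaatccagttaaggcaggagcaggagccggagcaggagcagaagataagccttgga
The letters occurred 0 times in the Kdr window, 2 times in that of Flt1, 3 times in that of Tie1 and 0 times in that of Tek. Of the 6 member promoters in the reference table, which also hold Emcn and Eng with 2 matches each, 4 (66.7%) had a match, against 46.5% of all 32851 promoters of the same length. A match is only a run of letters, and its absence from this window says nothing about binding of a factor.

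Endothelial RNA was present in every library, and the level of the 10 genes differed widely between them. On the FPKM scale, which is per length, Cdh5 averaged 50.0 ± 16.8 FPKM over the 16 libraries (SD), Eng 44.7 ± 6.06 and Pecam1 30.5 ± 7.02. Tie1 averaged 16.3 ± 4.78 FPKM, Kdr 10.6 ± 3.13, Tek 10.2 ± 2.79 and Nos3 8.90 ± 3.61. Vwf averaged 6.59 ± 1.60 FPKM, Flt1 5.95 ± 1.47 and Emcn 3.63 ± 0.824. Cdh5 thus lay above 92.8% of the tested genes in mean level and Emcn above 31.1%. The order of neighbours in this ranking was the same in 16 of 16 libraries for Eng over Pecam1, Pecam1 over Tie1, Tie1 over Kdr and Flt1 over Emcn. Cdh5 exceeded Eng in only 8 of 16 libraries, and Kdr exceeded Tek in 11, Tek exceeded Nos3 in 13, Nos3 exceeded Vwf in 12 and Vwf exceeded Flt1 in 12, so the levels of these neighbours were not separated beyond their spread. The reads behind a value ranged between 276 for Emcn and 7650 for Cdh5, and the counting error alone was at most 6.02% of a value.

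**Figure D1:**
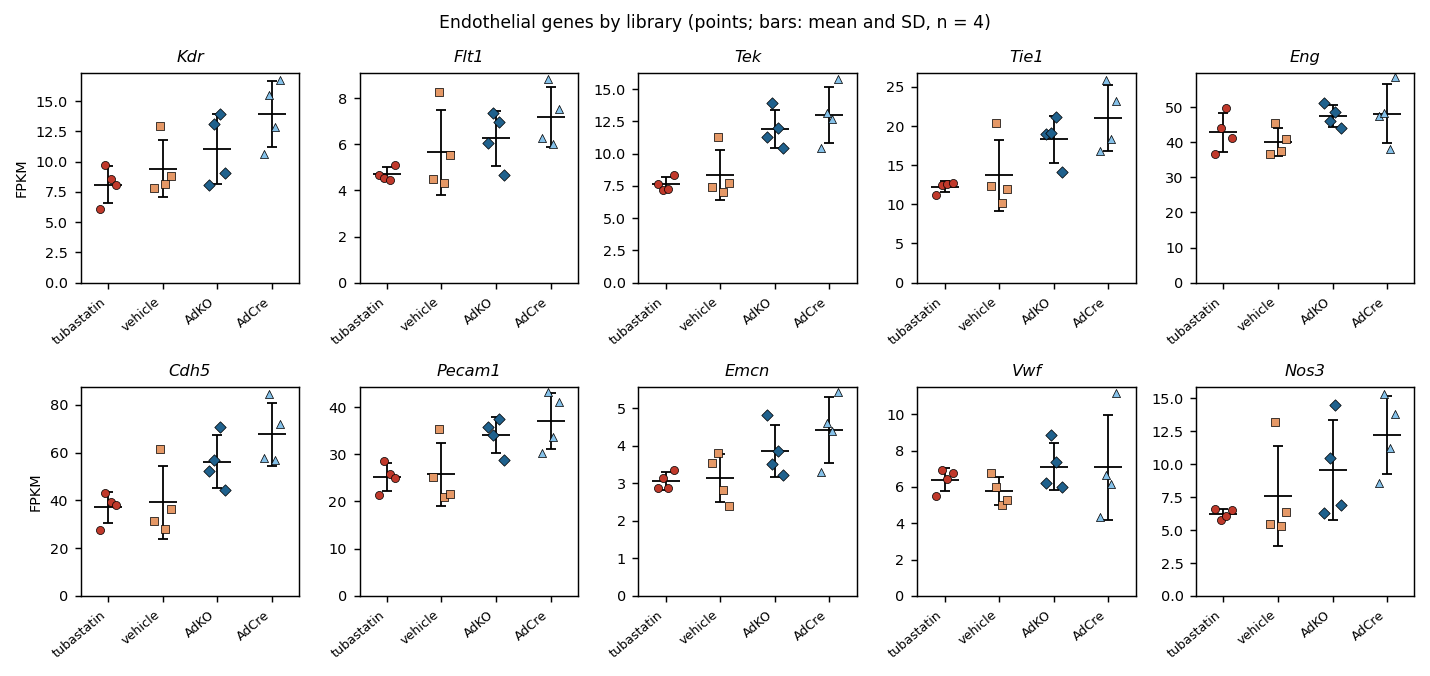
FPKM of the 10 endothelial genes in each library (points) with the mean and SD of 4 libraries (bars), for tubastatin, vehicle, AdKO and AdCre. Vehicle replicate 2 stands above the other vehicle libraries for 9 of the 10 genes, and the groups overlap within each comparison for every gene.

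The reads recovered per library summed to 19296390 to 24322232, and no replicates within a group agreed within sampling noise (chi-square per gene of 16.3 to 145). Hdac6, the gene both cohorts address, stood at 1.44 to 1.70 FPKM with tubastatin and 1.41 to 1.78 with vehicle, and at 2.66 to 4.11 in AdKO and 3.64 to 4.74 in AdCre (range of 4 libraries each), so the groups overlapped in both comparisons. Such whole-gene values in tissue do not tell a deleted allele from an intact one. AdCre replicates 2 and 3 held RNA of epididymal epithelium, with Gpx5 at 5.97 FPKM and Adam7 at 1.91 FPKM in replicate 2, and Adam7 at 5.57 FPKM and Epcam at 22.8 FPKM in replicate 3. Adam7 was also at 0.615 FPKM in vehicle replicate 1 and 0.358 FPKM in vehicle replicate 3, and at 0 in the 4 tubastatin libraries and in AdKO. Of 7 genes of platelets, which share Vwf and Pecam1 with endothelium, 3 passed the filter. These were Pf4 at 73.0 to 226 FPKM, Treml1 at 0.959 to 4.55 FPKM and Itga2b at 0.970 to 2.53 FPKM, while Gp1ba was at 0.990 FPKM or less, Gp9 at 0.512 FPKM or less and Gp6 at 0.0267 FPKM or less. Ppbp, also under the filter, was at 0.63 to 2.41 FPKM with tubastatin (16 to 61 reads) and 0.30 to 0.53 FPKM with vehicle (7 to 11 reads). These 2 groups did not overlap, as for 3.53% of the genes that passed the filter. In a fit of all genes with a value above 0 in any library, its log2 fold change was 0.70 (SE 0.26, adjusted p = 0.549 in limma). Ppbp was at 0.67 to 1.69 FPKM in AdKO and 0.68 to 1.11 FPKM in AdCre. Macrophages also express Pf4. The part of platelet RNA in Vwf and Pecam1 was not tested. Of 8 genes of lymphatic endothelium 5 passed, with Pdpn at 21.7 to 68.4 FPKM, Sox18 at 14.0 to 37.5, Lyve1 at 2.30 to 32.1, Flt4 at 1.49 to 3.34 and Mmrn1 at 0.125 to 3.72, while its defining factor Prox1 was at 0.466 FPKM or less and Ccl21a was listed at 0 in all 16 libraries. Blood vessel endothelium also expresses Sox18, macrophages Lyve1 and mesothelium Pdpn. Of these 5 genes, 3 were above 0 with tubastatin and 2 in AdKO, beside 45.4% and 50.9% of all genes. By limma 0 of the 5 passed the adjusted test. Pdpn alone had an unadjusted p under 0.05, with tubastatin (log2 fold change 0.50, SE 0.18, adjusted p = 0.378, groups overlapping), beside 5.94% of all genes in that direction. Fat cell markers were abundant, as the tissue label states, with Adipoq at 527 to 1227 FPKM over the 4 groups. In whole tissue, fewer cells of a type and less RNA per cell cannot be told apart.

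The first comparison asks whether vessel genes of obese fat differ with the HDAC6 inhibitor, and 0 of the 10 genes did so beyond the spread between libraries. Of all genes tested, 0% passed the limma test at an adjusted p of 0.05, 12% had an unadjusted p under 0.05 (5.94% higher and 6.1% lower) and 7.15% had groups without overlap, and of the 10 endothelial genes 0 met any of these. Log2 fold changes of FPKM + 1 lay between -0.19 and 0.13 with adjusted p-values of 0.593 to 0.988 (limma). Their 95% intervals are given with each gene, since a p above the threshold does not show that the groups are alike.

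Kdr, the main signalling receptor for VEGF (chromosome 5, 75932827 to 75978458 in GRCm38, minus strand), stood at 6.08, 9.74, 8.54 and 8.04 FPKM with tubastatin, against 7.84, 12.9, 8.12 and 8.82 FPKM with vehicle. The tubastatin values lay within or below the vehicle range, and vehicle replicate 2 was the highest of the 8 libraries. The log2 fold change was -0.19 (SE 0.17, 95% interval -0.58 to 0.21, adjusted p = 0.664 in limma), and -0.040 without vehicle replicate 2. Flt1, the high-affinity VEGF receptor that limits signalling through Kdr (chromosome 5, 147561604 to 147726011, minus strand), stood at 4.69, 4.55, 4.46 and 5.13 FPKM, against 4.50, 8.29, 4.31 and 5.54 FPKM with vehicle. Here too 3 of the 4 vehicle libraries lay close to the tubastatin libraries and replicate 2 stood above them, with a log2 fold change of -0.19 (SE 0.17, 95% interval -0.57 to 0.19, adjusted p = 0.650 in limma), and -0.014 without that library.

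Tek, the angiopoietin receptor (chromosome 4, 94739289 to 94874976, plus strand), stood at 7.64, 7.19, 7.22 and 8.36 FPKM with tubastatin, against 7.38, 11.2, 7.06 and 7.69 FPKM with vehicle. The difference of -0.10 on the log2 scale (SE 0.13, 95% interval -0.40 to 0.20, adjusted p = 0.763 in limma) lay within the spread. Tie1, its co-receptor (chromosome 4, 118471191 to 118490061, minus strand), stood at 11.2, 12.4, 12.6 and 12.8 FPKM, against 12.4, 20.4, 10.2 and 11.9 FPKM with vehicle. Tie1 varied by a coefficient of variation of 5.84% among the tubastatin libraries and 33.0% among the vehicle libraries, and its log2 fold change was -0.11 (SE 0.18, 95% interval -0.52 to 0.31, adjusted p = 0.823 in limma). Eng, the co-receptor through which BMP9 signals in endothelium (chromosome 2, 32646595 to 32682669, plus strand), stood at 36.7, 44.0, 49.8 and 41.1 FPKM, against 36.7, 45.6, 37.6 and 40.9 FPKM with vehicle. The tubastatin mean of Eng was the higher, by 0.088 on the log2 scale (SE 0.10, 95% interval -0.15 to 0.33, adjusted p = 0.739 in limma), and the groups overlapped.

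Among the junction genes, Cdh5, the cadherin of endothelial junctions (chromosome 8, 104101625 to 104144511, plus strand), stood at 27.8, 43.2, 39.2 and 38.2 FPKM with tubastatin, against 31.3, 61.5, 27.8 and 36.4 FPKM with vehicle. The vehicle range contained the whole tubastatin range apart from its lowest value, and the log2 fold change of -0.029 had a 95% interval of -0.59 to 0.53 (SE 0.24, adjusted p = 0.969 in limma). Pecam1, an adhesion molecule at the same junctions (chromosome 11, 106654217 to 106750628, minus strand), stood at 21.3, 28.6, 25.8 and 24.9 FPKM, against 25.1, 35.3, 20.9 and 21.5 FPKM with vehicle. Its group means were 25.2 ± 3.0 and 25.7 ± 6.67 FPKM (SD, n = 4 each), a log2 difference of -0.0070 with a 95% interval of -0.38 to 0.37 (adjusted p = 0.988 in limma). Emcn, a sialomucin of capillary and venous endothelium (chromosome 3, 137341067 to 137432185, plus strand), averaged 3.07 ± 0.236 FPKM with tubastatin and 3.15 ± 0.644 FPKM with vehicle (SD, n = 4 each), with a log2 fold change of -0.017 and a 95% interval of -0.28 to 0.24 (adjusted p = 0.961 in limma).

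Vwf, the secreted clotting factor that endothelium stores in granules (chromosome 6, 125546774 to 125686679, plus strand), stood at 5.48, 6.91, 6.44 and 6.78 FPKM with tubastatin, against 6.77, 6.01, 5.02 and 5.28 FPKM with vehicle. It had the largest positive log2 fold change of the 10 genes in this comparison, 0.13 (SE 0.10, 95% interval -0.093 to 0.36, adjusted p = 0.593 in limma), and the groups overlapped. Nos3, the endothelial nitric oxide synthase (chromosome 5, 24364810 to 24384474, plus strand), stood at 6.62, 5.74, 6.04 and 6.50 FPKM, against 5.43, 13.3, 5.30 and 6.39 FPKM with vehicle. The tubastatin libraries spanned less than 1 FPKM, while vehicle replicate 2 stood far above the other vehicle libraries, and the log2 fold change was -0.16 (SE 0.24, 95% interval -0.72 to 0.39, adjusted p = 0.796 in limma). Exons of Nos3 overlap those of Atg9b by 294 bases and of Gm15587 by 1040 bases on the opposite strand, and those of Eng overlap Fpgs by 61 bases. Whether strand was used in counting is not given in the sources used here, but Atg9b and Gm15587 were at 0.515 FPKM or less, and Fpgs at 3.88 to 5.88 FPKM.

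The direction across the 10 genes depended on the libraries used. With all 8 libraries, 8 of 10 genes had a log2 fold change below 0, where 54.6% of all genes did, and their median was -0.065, beside a median of -0.015 for all genes. Without vehicle replicate 2, which was the highest vehicle library for 9 of the 10 genes, 2 of 10 were below 0 and the median was 0.098, beside -0.014 for all genes. Without tubastatin replicate 1, 5 of 10 were below 0 with a median of -0.032, and with library weights 3 of 10 with a median of 0.0090, beside -0.015 for all genes. With quantile normalization, 6 of 10 were below 0 with a median of -0.051. Rescaling to TPM, which sums to the same total in every library, put the median of all genes at 0.057 and that of the 10 genes at 0.0081. On that scale 5 of 10 were below 0 and the highest was at 0.22, so only the median of the 10 remained below that of all genes. No direction is given for the genes together.

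The second comparison asks the same of the adipocyte knockout, and again 0 of the 10 genes differed between AdKO and AdCre beyond the spread. Over all genes, 0% passed at an adjusted p of 0.05, 10.9% had an unadjusted p under 0.05 (4.78% higher and 6.16% lower) and 6.48% had groups without overlap, and of the 10 endothelial genes 0 met any of these. Log2 fold changes of FPKM + 1 lay between -0.37 for Nos3 and 0.057 for Vwf, with limma adjusted p-values of 0.568 to 0.990.

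**Figure D2:**
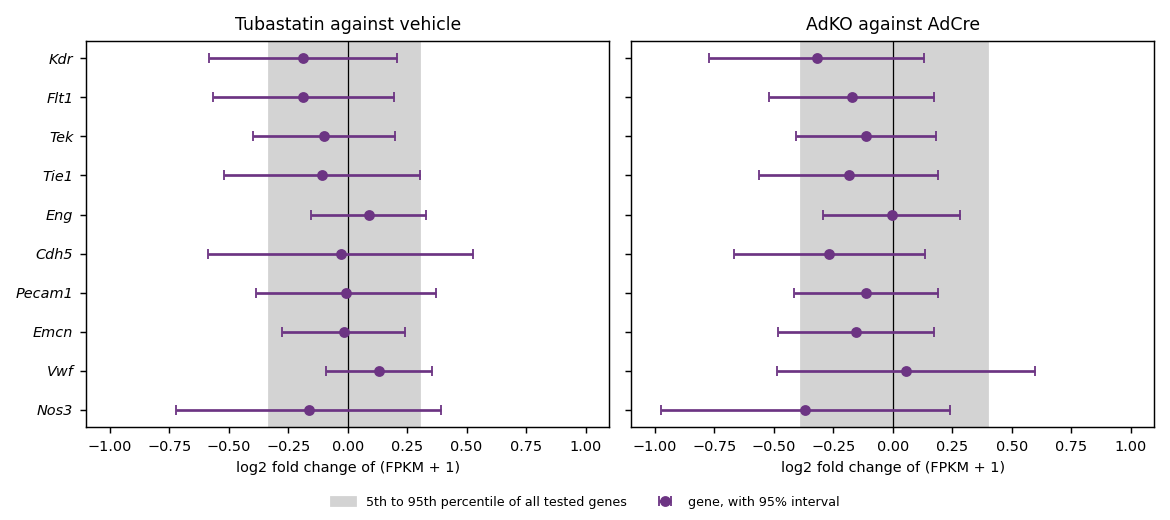
Log2 fold change of FPKM + 1 for the 10 endothelial genes with its 95% interval (limma), tubastatin against vehicle on the left and AdKO against AdCre on the right, over the 5th to 95th percentile of all tested genes (grey). All 20 intervals include 0.

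Kdr stood at 8.11, 13.1, 14.0 and 9.10 FPKM in AdKO, against 10.7, 15.5, 12.8 and 16.8 FPKM in AdCre. AdKO replicates 1 and 4 lay below every AdCre library and replicates 2 and 3 lay among them, and the log2 fold change was -0.32 (SE 0.20, 95% interval -0.77 to 0.13, adjusted p = 0.568 in limma). Nos3 stood at 6.29, 10.5, 14.5 and 6.87 FPKM in AdKO, against 8.59, 15.3, 11.2 and 13.8 FPKM in AdCre. The same 2 AdKO libraries were below all AdCre libraries, and the log2 fold change of -0.37 had the widest interval of the 10 genes in this comparison, -0.98 to 0.24 (SE 0.26, adjusted p = 0.613 in limma). Cdh5 stood at 52.4, 57.1, 70.8 and 44.2 FPKM in AdKO, against 57.7, 84.6, 56.8 and 71.8 FPKM in AdCre, with a log2 fold change of -0.27 (SE 0.17, 95% interval -0.67 to 0.13, adjusted p = 0.587 in limma). AdKO replicate 3 was above 2 AdCre libraries for Cdh5, so these groups overlapped as well.

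The angiopoietin receptors lay closer together. Tek stood at 11.2, 13.9, 12.0 and 10.5 FPKM in AdKO, against 10.4, 13.1, 12.7 and 15.8 FPKM in AdCre, and Tie1 at 19.0, 19.1, 21.1 and 14.1 FPKM, against 16.8, 25.9, 18.3 and 23.2 FPKM in AdCre. Their log2 fold changes were -0.11 (95% interval -0.41 to 0.18) and -0.19 (95% interval -0.56 to 0.19), with limma adjusted p-values of 0.744 and 0.668. Flt1 averaged 6.26 ± 1.19 FPKM in AdKO and 7.17 ± 1.30 FPKM in AdCre, Pecam1 34.0 ± 3.81 FPKM in AdKO and 37.1 ± 6.01 FPKM in AdCre, and Emcn 3.87 ± 0.691 FPKM in AdKO and 4.44 ± 0.880 FPKM in AdCre (SD, n = 4 each). Their log2 fold changes ran between -0.17 for Flt1 and -0.11 for Pecam1, with limma adjusted p-values of 0.665 to 0.747, and all 3 had overlapping groups. Without AdKO replicate 4, the log2 fold change was -0.060 for Flt1 and -0.036 for Pecam1, and that of Tek was -0.021 without AdCre replicate 4.

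Eng and Vwf showed the smallest differences of the 10 genes between AdKO and AdCre. Eng stood at 51.3, 46.0, 48.7 and 44.2 FPKM in AdKO, against 47.5, 48.4, 38.2 and 58.6 FPKM in AdCre, a log2 fold change of -0.0050 (SE 0.12, 95% interval -0.29 to 0.28, adjusted p = 0.990 in limma). Vwf stood at 6.22, 8.86, 7.37 and 6.01 FPKM, against 4.36, 6.67, 6.14 and 11.2 FPKM in AdCre, where replicate 4 was above and replicate 1 below every AdKO library. The log2 fold change of Vwf was 0.057 (SE 0.24, 95% interval -0.49 to 0.60, adjusted p = 0.937 in limma), and it was -0.12 without AdCre replicate 1 and 0.28 without AdCre replicate 4.

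Across the 10 genes, 9 had a lower mean in AdKO than in AdCre on the log2 scale, where 49.1% of all genes did. The 10 genes vary together between libraries, so this count does not stand for 10 separate observations. The median of the 10 was -0.16, beside 0.0041 for all genes, and it lay between -0.24 and -0.065 when any of the 8 libraries was left out. Without AdCre replicates 2 and 3, which held the epithelial RNA, 10 of 10 were below 0 and the median was -0.13. Without AdCre replicate 1 the count was also 10 of 10. It was 8 of 10 with TPM, with quantile normalization, and without AdKO replicate 4, AdCre replicate 2 or AdCre replicate 4. Limma voom on recovered reads also called 0 of the 10 genes in both comparisons.

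The effects of the drug and of the knockout on the 10 genes were then compared directly. The difference of the log2 fold changes, with a term for it in a fit of all 16 libraries, lay between -0.014 for Flt1 and 0.24 for Cdh5, with limma adjusted p-values of 0.849 to 0.994. Of all genes 0% passed, and 9.03% had an unadjusted p under 0.05 (4.46% above 0 and 4.57% below), against 0 of the 10 endothelial genes. The difference was above 0 for 9 of the 10, beside 49.4% of all genes, with a median of 0.099, beside -0.0022 for all genes. This count depended on single libraries. It was 6 of 10 without AdCre replicate 4 (median 0.036) and 7 of 10 without vehicle replicate 3 (0.042) or AdKO replicate 4 (0.044). Without vehicle replicate 2 it was 10 of 10 (0.24). With all 16 libraries, all 10 intervals included 0, and the widest, for Nos3, reached -0.62 to 1.02. Group means were highest in AdCre, then AdKO, then vehicle and lowest in tubastatin for 8 of the 10 genes, the exceptions being Vwf and Eng. The 2 cohorts differ in labelled age and genotype, no test between them was made, and for each gene at least 1 library of the knockout cohort lay within the range of the drug cohort.

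The 10 genes varied together from library to library. When each log2 value was centred on its group mean, Pearson's r over the 16 libraries was above 0 for 45 of 45 gene pairs and above 0.5 for 32 of them, with a median of 0.671. The closest pairs were Pecam1 with Tie1 (r = 0.943), Cdh5 with Tie1 (r = 0.921) and Flt1 with Tie1 (r = 0.920), and the loosest was Eng with Nos3 (r = 0.322). Tie1 followed the mean of the other 9 genes most closely (r = 0.946), and Eng (r = 0.558), Emcn (r = 0.576) and Vwf (r = 0.579) least. Without vehicle replicate 2, the median over pairs was 0.601 and 28 of 45 pairs were above 0.5. These values share library depth and tissue makeup, and are a description of 16 libraries.

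**Figure D3:**
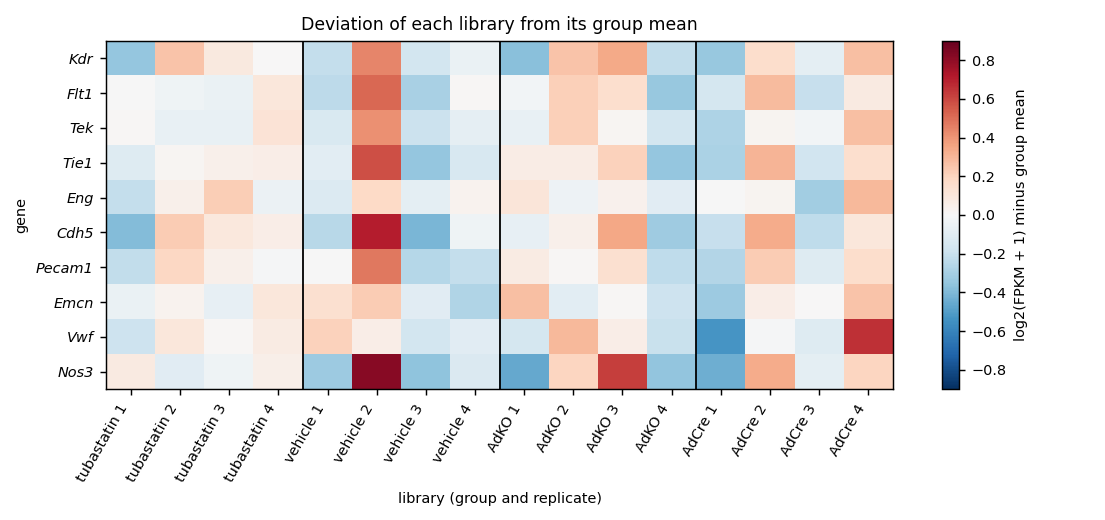
Deviation of each library from its group mean in log2(FPKM + 1), for the 10 endothelial genes (rows) and 16 libraries (columns), red above and blue below the group mean. Vehicle replicate 2 is red for all 10 genes, and AdKO replicate 4 and AdCre replicate 1 are mostly blue.

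Vehicle replicate 2 was the highest vehicle library for 9 genes and vehicle replicate 3 the lowest for 7. AdKO replicate 4 was the lowest AdKO library for 8 genes and AdCre replicate 1 the lowest AdCre library for 7, while AdCre replicates 2 and 4 were the highest for 5 each. The endothelial level varied least among the tubastatin libraries, with values (the mean of the 10 genes' log2 values, each centred on its mean over all libraries) of -0.39 to -0.18, against -0.43 to 0.25 with vehicle. In AdKO the endothelial level was -0.11 to 0.33, against 0.018 to 0.54 in AdCre. Taken relative to the mean of the other 9 genes, the log2 level of Vwf differed by 0.21 between tubastatin and vehicle and by 0.25 between AdKO and AdCre, that of Eng by 0.16 and 0.18, that of Kdr by -0.14 and -0.17, and that of Nos3 by -0.12 and -0.23. Flt1 differed by -0.14 and -0.0097 and Cdh5 by 0.032 and -0.12, and Pecam1, Tie1, Tek and Emcn by 0.058 or less either way. The groups overlapped for all 10 genes.

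Adipocyte genes varied with the endothelial ones. The level of 10 adipocyte genes (Adipoq, Plin1, Cidec, Lipe, Pparg, Plin4, Pnpla2, Dgat2, Acsl1 and Lpl) ran -0.48 to -0.32 with tubastatin and -0.39 to 0.38 with vehicle, and -0.54 to 0.56 in AdKO and 0.19 to 0.66 in AdCre. Within groups its r with the endothelial level was 0.783 over 16 libraries, and 0.718 over 15 without vehicle replicate 2. All 10 adipocyte genes had a log2 fold change below 0 in both comparisons, beside 54.6% of all genes with tubastatin and 49.1% in AdKO. Their medians were -0.28 for tubastatin and -0.34 for AdKO, and 0 of them passed the adjusted test. In each comparison 1 was lower at an unadjusted p under 0.05, beside 6.1% of all genes with tubastatin and 6.16% in AdKO. AdKO replicates 1 and 4 had the 2 lowest adipocyte levels of that group, -0.37 and -0.54, beside endothelial levels of 0.072 and -0.11. Whether fat cell content or vessel content set these values was not tested.

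**Figure D4:**
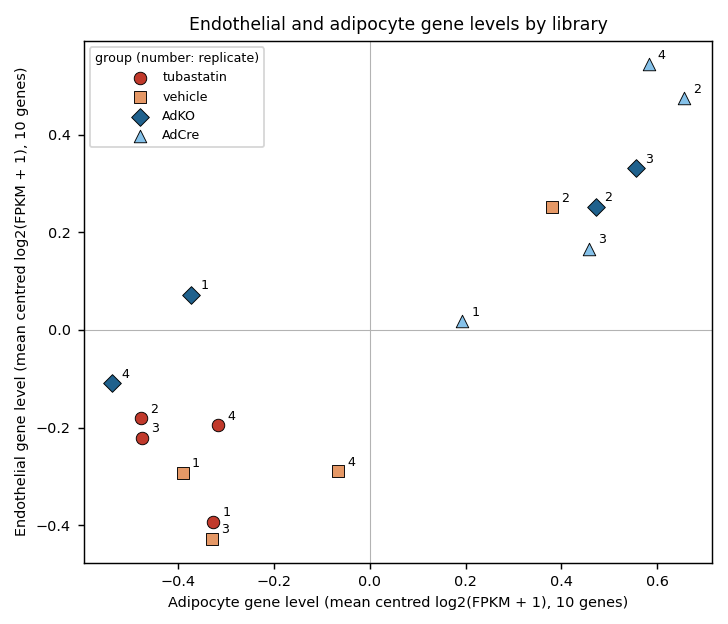
Endothelial level against adipocyte level in each of the 16 libraries (means of 10 genes each, in log2(FPKM + 1) centred per gene over all libraries), with symbols for the 4 groups and the replicate number beside each. Vehicle replicate 2 stands apart from the other vehicle libraries on both axes, at 0.25 and 0.38, and AdKO splits into replicates 2 and 3 at the upper right and replicates 1 and 4 at lower adipocyte levels.

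The other cell types differed in how they followed the endothelial level. The median r of macrophage genes with it was -0.527 over the 10 genes, that of T, NK and B cell genes -0.476 over 9, that of platelet genes -0.338 over 3 and that of mesothelial genes -0.268 over 6. Red blood cell genes had a median r of 0.272 over 5 genes and adipose progenitor genes one of 0.211 over 8. Pericyte and smooth muscle genes, which belong to the outer vessel wall, had a median r of 0.697 over 11 genes. In AdKO against AdCre, 10 of 10 macrophage genes (median log2 fold change 0.30), 9 of 9 lymphocyte genes (0.43) and 6 of 6 mesothelial genes (0.92) were above 0, where 50.9% of all genes were, and 9 of 11 pericyte and smooth muscle genes were below 0 (-0.25). With tubastatin, 9 of 9 lymphocyte genes were below 0 (-0.70), while macrophage genes were 7 above and 3 below (0.048). Of all genes, 54.6% were below 0 with tubastatin. By limma 0 genes of these 4 lists passed the adjusted threshold. At an unadjusted p under 0.05 there were 5 lymphocyte genes lower, beside 6.1% of all genes, and 1 mesothelial gene higher, beside 5.94%, with tubastatin. In AdKO there were 2 lymphocyte and 5 mesothelial genes higher, beside 4.78% of all genes, and 1 pericyte and smooth muscle gene lower, beside 6.16%. The macrophage list had 0 such genes in both comparisons and the pericyte and smooth muscle list 0 with tubastatin. Their part in the endothelial values was not tested.

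The genes outside the 10 whose centred values were most like the endothelial level over the 16 libraries were Cyyr1 (r = 0.971), Cldn5 (r = 0.971), Mmrn2 (r = 0.939), Ebf3 (r = 0.935) and Ndufs3 (r = 0.928), followed by L3hypdh, She, Jcad, Cdh13 and Prkaca (r = 0.920 to 0.905). Cldn5 is the claudin of endothelial tight junctions and Mmrn2 an endothelial matrix glycoprotein. Ndufs3, a subunit of mitochondrial complex I, and Prkaca, the catalytic subunit of protein kinase A, are expressed in most cells. Cldn5 stood at 26.8, 34.3, 34.1 and 35.2 FPKM with tubastatin, against 27.4, 50.6, 23.8 and 27.5 FPKM with vehicle. Vehicle replicate 2 was its highest vehicle library, as for 9 of the 10 genes. Cldn5 was picked here for its likeness to them, so the shared pattern is no separate result.

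Of 7 tested ligands and co-receptors of the VEGF receptors, 7 were below 0 with tubastatin (median -0.13), beside 54.6% of all genes. In AdKO 5 of 7 were below 0 (median -0.14), beside 49.1% of all genes. By limma 0 of the 7 had an adjusted or an unadjusted p under 0.05 in either direction. Vegfb, which binds Flt1, stood at 34.6, 35.3, 30.3 and 35.1 FPKM with tubastatin, against 33.0, 49.1, 35.4 and 47.7 FPKM with vehicle (log2 fold change -0.26, SE 0.14, adjusted p = 0.458 in limma). Vegfa, the ligand of Kdr and Flt1, stood at 14.7, 17.4, 13.6 and 16.5 FPKM, against 16.5, 26.5, 16.6 and 16.9 FPKM with vehicle (log2 fold change -0.26, SE 0.16, adjusted p = 0.518 in limma). Vehicle replicate 2 was again the highest, and the groups overlapped for both ligands. In AdKO, Vegfa stood at 22.3, 37.0, 40.9 and 23.3 FPKM, against 30.1, 42.5, 30.9 and 45.2 FPKM in AdCre (log2 fold change -0.29, SE 0.23, adjusted p = 0.647 in limma). Among the 5 tested angiopoietin and Tie partners, 3 were below 0 in each comparison and 0 had an adjusted or an unadjusted p under 0.05. Angpt1, the activating ligand of Tek, stood at 1.03, 1.54, 1.91 and 1.27 FPKM in AdKO, against 1.36, 2.38, 2.37 and 2.22 FPKM in AdCre (log2 fold change -0.34, SE 0.16, adjusted p = 0.484 in limma), with AdCre replicate 1 within the AdKO range.

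The flow-responsive transcription factor Klf2, which raises Nos3 in cultured endothelium, had the smallest unadjusted p of the 11 tested endothelial transcription factors in both comparisons. It stood at 57.5, 69.7, 59.2 and 59.9 FPKM with tubastatin, against 46.2, 38.3, 44.5 and 47.6 FPKM with vehicle, and at 46.4, 49.6, 37.5 and 50.9 FPKM in AdKO, against 34.7, 36.9, 34.6 and 35.5 FPKM in AdCre. All libraries of the first named group were above all of the second in both comparisons, which held for 3.53% of all genes with tubastatin and 2.78% in AdKO. The log2 fold changes of 0.47 (SE 0.088) and 0.36 (SE 0.10) did not pass over all genes (adjusted p = 0.197 and 0.321 in limma), with adjusted p-values of 0.103 to 0.436 over 19 alternatives and 0.126 to 0.845 over 20. The related factor Klf4 was 0.34 (SE 0.14) and 0.22 (SE 0.093) higher on the log2 scale with overlapping groups (adjusted p = 0.400 and 0.451 in limma). Klf2 and Klf4 are also expressed by macrophages and lymphocytes. Fli1, an ETS factor of endothelium and blood cells, stood at 13.5, 14.6, 14.8 and 13.9 FPKM with tubastatin, against 15.4, 15.5, 16.5 and 15.2 FPKM with vehicle, without overlap, as for 3.62% of all genes, at a log2 fold change of -0.13 (SE 0.050, adjusted p = 0.382 in limma). Of the 11 factors, 5 were above 0 with tubastatin and 6 in AdKO, beside 45.4% and 50.9% of all genes. The adjusted limma test was passed by 0 of the 11. At an unadjusted p under 0.05 there were 3 with tubastatin, 2 higher, beside 5.94% of all genes, and 1 lower, beside 6.1%. In AdKO there were 2, both higher, beside 4.78% of all genes.

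Venous and arterial genes were described in the same way. Ackr1, the chemokine-binding receptor that marks venules, stood at 7.70, 7.50, 6.58 and 7.16 FPKM with tubastatin, against 4.94, 5.50, 4.84 and 4.34 FPKM with vehicle, without overlap. Its log2 fold change was 0.48 (SE 0.073, adjusted p = 0.153 in limma, and 0.0773 to 0.403 over 19 alternatives), and it was the only gene of the 5 tested venous genes without overlap, which held for 3.53% of all genes in that direction. In AdKO Ackr1 overlapped AdCre (log2 fold change 0.22, adjusted p = 0.572 in limma). Lrg1, a secreted glycoprotein of venules that adipocytes and neutrophils also express, stood at 204, 302, 401 and 189 FPKM in AdKO, against 394, 492, 408 and 332 FPKM in AdCre, with overlap (log2 fold change -0.62, SE 0.25, adjusted p = 0.444 in limma). Of the 5 venous genes, 4 were above 0 with tubastatin (median 0.060) and 3 in AdKO (median 0.077), beside 45.4% and 50.9% of all genes. The adjusted limma test was passed by 0 of the 5. At an unadjusted p under 0.05, 1 was higher with tubastatin, beside 5.94% of all genes, and 1 lower in AdKO, beside 6.16%. Dll4, the Notch ligand of arterial and sprouting endothelium, stood at 3.92, 5.55, 5.66 and 3.53 FPKM in AdKO, against 6.50, 7.35, 6.33 and 7.82 FPKM in AdCre. Every AdKO library was below every AdCre library, as for 3.7% of all genes, with a log2 fold change of -0.52 (SE 0.14, adjusted p = 0.316 in limma). Gja4, the connexin of arterial endothelium, stood at 3.61, 7.12, 6.64 and 5.79 FPKM in AdKO, against 6.25, 8.85, 10.5 and 9.05 FPKM in AdCre, with overlap (log2 fold change -0.52, SE 0.20, adjusted p = 0.433 in limma). Of the 10 tested arterial and Notch genes, 8 were below 0 in AdKO (median -0.16), beside 49.1% of all genes. With tubastatin 5 were below 0 (median 0.0051), beside 54.6% of all genes, and 0 passed the adjusted limma test in either comparison. At an unadjusted p under 0.05, 2 were lower in AdKO, beside 6.16% of all genes, and there were 0 with tubastatin.

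**Figure D5:**
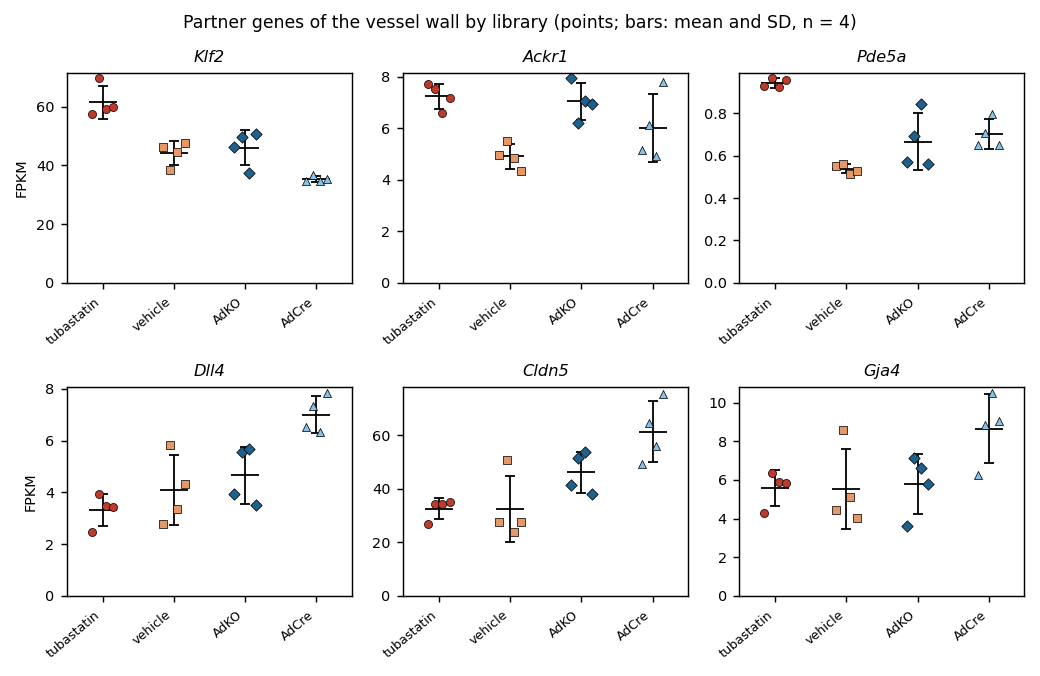
FPKM of Klf2, Ackr1, Pde5a, Dll4, Cldn5 and Gja4 in each library (points) with the mean and SD of 4 libraries (bars), for tubastatin, vehicle, AdKO and AdCre. Klf2, Ackr1 and Pde5a are higher in every tubastatin library than in any vehicle library, and Dll4 is lower in every AdKO library than in any AdCre library, but no gene passed the adjusted test.

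In the remaining pathway lists limma called 0 genes in either direction at the adjusted threshold. At an unadjusted p under 0.05 there were 0 junction genes, 0 BMP9 pathway genes and 1 lipid handling gene with tubastatin, higher, beside 5.94% of all genes. In AdKO there were 1, 1 and 2, all lower, beside 6.16% of all genes. For the signs that follow, 45.4% of all genes were above 0 with tubastatin and 50.9% in AdKO. Of 13 tested junction and adhesion genes, 6 were above 0 with tubastatin and 5 in AdKO, and Cldn5 was 46.1 ± 7.55 FPKM in AdKO and 61.3 ± 11.3 FPKM in AdCre (SD, n = 4 each, log2 fold change -0.40, adjusted p = 0.443 in limma). Of 12 genes of the BMP9, ALK1 and endoglin pathway, 8 were above 0 with tubastatin and 6 in AdKO. Its target Id3 was 47.7 ± 9.03 FPKM in AdKO and 58.6 ± 2.58 FPKM in AdCre (log2 fold change -0.31, adjusted p = 0.456 in limma). Of 12 genes of capillary lipid handling, 5 were above 0 with tubastatin and 1 in AdKO (median -0.22). Tcf15, a transcription factor of fat and muscle capillaries, was 11.2 ± 2.87 FPKM in AdKO and 16.2 ± 2.54 FPKM in AdCre (log2 fold change -0.50, SE 0.17, adjusted p = 0.383 in limma). Gpihbp1, which carries lipoprotein lipase across capillary endothelium, was 20.1 ± 2.08 FPKM with tubastatin and 25.4 ± 8.69 FPKM with vehicle, and 31.7 ± 7.06 FPKM in AdKO and 38.6 ± 9.83 FPKM in AdCre (SD, n = 4 each). Slc27a3, a fatty acid transport protein, stood at 4.43, 6.72, 5.22 and 4.76 FPKM with tubastatin, against 3.78, 3.12, 4.12 and 3.57 FPKM with vehicle, without overlap, as for 3.53% of all genes (log2 fold change 0.43, SE 0.12, adjusted p = 0.306 in limma).

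Of the 10 tested genes of the nitric oxide pathway around Nos3, 6 were above 0 with tubastatin, beside 45.4% of all genes. In AdKO 4 were above 0, beside 50.9% of all genes, and 0 passed the adjusted limma test in either comparison. At an unadjusted p under 0.05, 1 was higher in AdKO, beside 4.78% of all genes, and there were 0 with tubastatin. Cav1, the caveolin that binds and restrains the Nos3 enzyme, was 271 ± 18.3 FPKM with tubastatin and 327 ± 81.5 FPKM with vehicle, and 432 ± 164 FPKM in AdKO and 558 ± 45.8 FPKM in AdCre (SD, n = 4 each). Adipocytes also express Cav1 at a high level. Pde5a, the phosphodiesterase that degrades cyclic GMP downstream of nitric oxide, had a mean under the filter of 1 FPKM and is named after its values were seen. It stood at 0.928, 0.968, 0.923 and 0.958 FPKM with tubastatin (188 to 226 reads), against 0.552, 0.561, 0.515 and 0.528 FPKM with vehicle (104 to 111 reads), without overlap, as for 3.53% of the genes that passed the filter. In a fit of all 32772 genes with a value above 0 in any library, its log2 fold change of FPKM + 1 was 0.34 (SE 0.038, adjusted p = 0.134 in limma). Between AdKO and AdCre Pde5a overlapped, with a log2 fold change of -0.033 (SE 0.075, adjusted p = 0.931 in limma).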

How the data were processed

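RNA of epididymal fat was measured by RNA-seq in 16 libraries, 4 per group, and all 16 columns of the table matched a sample by title. Per the labels' protocols, total RNA was extracted with Trizol, treated with DNase and cleaned on RNeasy columns. The authors deposited FPKM values per Ensembl gene. Which aligner, counting tool and genome build were used is not given in the sources used here, and inguinal fat was not analysed here.

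Of 54532 IDs, 54409 matched a symbol. With exon lengths of GENCODE M21 (GRCm38), 96.3 to 96.5% of values above 0 came out as whole reads within 0.01, which gave the depths stated. Counting errors given for values cover counting only, whereas the 95% intervals of fold changes rest on the spread between libraries. R 4.3.3 with limma 3.58.1 (trend option) tested log2(FPKM + 1) of the 13271 genes with a mean of at least 1 FPKM, adjusted over all of them by Benjamini-Hochberg at 0.05. For low genes this scale makes changes look smaller. Fits used the 8 libraries of a comparison, or all 16 for the difference of effects. The method was tested on simulated data. Other values were computed with Python 3.11.15, NumPy 2.4.6, pandas 2.3.3 and matplotlib 3.10.9.

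The endothelial genes, the pathway and cell type lists and the tests were chosen with earlier results of these data known, so lists are given as counts and medians with no test. Named are the 10 genes, Hdac6, up to 4 genes per list and comparison with the smallest p, and the 10 genes most like the endothelial level. Pde5a, marker genes given for the tissue check, and Gpihbp1 and Cav1 outside their comparisons were added after their values were seen. Alternatives were pseudocounts of 0.1 and 0.5, no filter, a mean of at least 5 FPKM, TPM, median-of-ratios factors, array weights, quantile normalization, 1 shared spread, limma voom on recovered reads, the replicate block, each library left out and AdCre replicates 2 and 3 left out. Correlations without vehicle replicate 2 were chosen after seeing the data.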

Additional observations from a re-analysis of the deposited data

Results flagged for a closer look

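In each group of 4 libraries, the gap between the most extreme library and its nearest neighbour was set against the range of the group, for the 10 endothelial genes and 14 pathway genes. Of 96 groups, 6 had a library farther out than the 95% limit of Dixon's test, and chance alone gives about 1 in 20 for independent groups. The genes vary together and the 14 were chosen from these same data, so the count of 6 cannot be judged against that rate. Vehicle replicate 2 was the library in 4 of the 6. Tek stood there at 11.2 FPKM, beside 7.06 to 7.69 FPKM in the other vehicle libraries (ratio of gap to range 0.851), and Nos3 at 13.3 FPKM, beside 5.30 to 6.39 FPKM (0.864). Cldn5, the endothelial claudin, stood at 50.6 FPKM, beside 23.8 to 27.5 FPKM (0.863), and Lrg1, a secreted glycoprotein of venules that adipocytes and neutrophils also express, at 229 FPKM, beside 135 to 145 FPKM (0.900).

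Cldn5 was low in tubastatin replicate 1, at 26.8 FPKM beside 34.1 to 35.2 FPKM in the other tubastatin libraries (0.876). Slc27a4, a fatty acid transport protein, was high in AdKO replicate 3, at 11.2 FPKM beside 9.37 to 9.66 FPKM in the other AdKO libraries (0.846). Of 23 genes for which the drug and knockout effects were compared, 0 differed between the comparisons by the limma test of the difference.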

How the results depend on the processing

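The count of genes called was 0 in all 3 comparisons. Without a filter it was 3 for tubastatin against vehicle, 2 for AdKO against AdCre and 1 for the difference of effects. With 1 spread shared by all 16 libraries it was 8 and 43 in the first 2, with TPM 1 for tubastatin against vehicle, and with array weights 6 for the difference of effects. With each library left out it was 0 to 2, 0 to 1 and 0 to 5, and 0 of the 10 endothelial genes were called under any alternative. The replicate numbers are not said to pair the samples. The r of same-numbered deviations was -0.104 to 0.0178 for tubastatin and vehicle and -0.232 to 0.330 for AdKO and AdCre, too few values to decide on pairing. With the replicate block 0 genes were called in each comparison, with 1494, 1564 and 1262 at an unadjusted p under 0.05, against 1597, 1452 and 1198 without it. 2 of 4 AdKO libraries and 0 of 4 tubastatin libraries correlated best with their own number, counts too small to decide on pairing. With TPM the median of all genes was 0.057 for tubastatin against vehicle, 0.019 for AdKO against AdCre and 0.055 for the difference of effects, beside -0.015, 0.0041 and -0.0022 as tested, so signs under TPM are relative to a shifted centre. For tubastatin against vehicle, the sign of the log2 fold change turned for Pecam1 (TPM 0.070, quantile normalization 0.032, array weights 0.081), Cdh5 (0.048, 0.030 and 0.13), Emcn (TPM 0.053, array weights 0.012), Tie1 (array weights 0.0065) and Nos3 (array weights 0.00050). With each library left out, Pecam1 ran -0.092 to 0.15, Cdh5 -0.17 to 0.21, Tie1 -0.22 to 0.087, Tek -0.16 to 0.037, Emcn -0.11 to 0.059, Nos3 -0.28 to 0.11, Kdr -0.27 to -0.040, Flt1 -0.28 to -0.014, Vwf 0.077 to 0.20 and Eng 0.014 to 0.16. For AdKO against AdCre, Eng turned with TPM (0.011) and quantile normalization (0.042), and ran -0.11 to 0.093 with each library left out. Vwf was -0.0069 without AdCre replicates 2 and 3 and ran -0.12 to 0.28, Pecam1 -0.20 to -0.036, Flt1 -0.24 to -0.060, Tek -0.20 to -0.021, Tie1 -0.28 to -0.070, Emcn -0.26 to -0.068, Cdh5 -0.38 to -0.16, Kdr -0.43 to -0.20 and Nos3 -0.58 to -0.21. For the difference of effects, Flt1 turned with TPM (0.042) and array weights (0.071) and ran -0.13 to 0.16, Tie1 -0.039 to 0.27, Tek -0.079 to 0.15, Vwf -0.14 to 0.25 and Eng -0.0049 to 0.20. Apart from the TPM shift, the cause was not tested. Emcn, Dll4 and Slc27a3 had no value at a mean of at least 5 FPKM. The 4 libraries per group and their spread, more than the depth, limit these values, with counting error at most 6.02%.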
